A study of Danio rerio with 48 samples.

Results

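Homozygous noc2l mutant zebrafish (Danio rerio) were followed over 12 hours of organ formation, by comparing mutant embryos at 48 hours post fertilisation (hpf) with mutant embryos at 36 hpf across all genes. The mutant embryos were chosen by their labels for genotype and age, which gave 7 noc2l -/- embryos at 48 hpf and 9 at 36 hpf, 16 of the 48 embryos of the series. For comparison the series holds 9 noc2l +/+ embryos at 48 hpf and 8 at 36 hpf. All came from 1 family of the RIKEN WT strain that carries the agu79 allele, and what the allele alters in the gene is not stated in those labels. Each embryo gave 1 whole-body library of 3' ends of polyadenylated RNA by Lasy-Seq, in which every RNA is indexed at reverse transcription and all samples are then pooled. The labels do not say whether the embryos of 1 age came from 1 clutch, so p-values measure the spread between embryos of 1 family.

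Noc2l is a protein of the nucleolus that is needed for the maturation of the large ribosomal subunit, as known from its yeast counterpart. Between the 2 ages a zebrafish embryo normally leaves rapid proliferation behind: neurons mature, lens fibres fill with crystallins, cartilage and the first bone cells appear, trunk muscle contracts strongly, and the hatching gland discharges. Whether mutant embryos pass through these steps, and where their change departs from that of wild types, is what the comparison addresses.

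Total counts lay between 2.75 and 9.31 per library in mutants of 48 hpf and between 5.52 and 9.07 in mutants of 36 hpf, in units of 1000000 counts. No difference between the mutant groups passed the test for total counts, for genes detected, or for the percentage of counts held by the top 10 genes (exact two-sided permutation tests, adjusted p = 0.979 for each over 4 tests). The share of the mitochondrially encoded transcripts was 3.80% ± 0.199 at 48 hpf and 3.2% ± 0.164 at 36 hpf (SD, n = 7 and 9; exact two-sided permutation test, p = 0.000175, adjusted p = 0.000699). Of the 13 mitochondrial genes in this share 1 was called, mt-co1, a subunit of cytochrome c oxidase, which rose by 0.35 on the log2 scale. Libraries are numbered group by group in the labels, so age and the order of collection or handling cannot be told apart. The noc2l transcript itself lay between 2.69 and 6.99 CPM (counts per 1000000) in mutants of 48 hpf and between 2.69 and 10.6 CPM in mutants of 36 hpf. It averaged 13.5 CPM in wild types of 48 hpf (range 5.71 to 22.7) and 15.5 CPM in wild types of 36 hpf (range 6.70 to 23.4). Single embryos of the 2 genotypes thus overlapped at both ages. A 3' tag need not lie in the altered part of the gene, so agreement with the labels is checked only partly. Its change with age in mutants was not called (log2 change -0.39, SE 0.34).

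Of 16431 genes tested, 780 were higher (4.75%) and 865 lower (5.26%) in mutants at 48 hpf than at 36 hpf, at an adjusted p below 0.05 in edgeR's quasi-likelihood test. Which direction held more genes depended on the fit. Scaling to library totals alone in place of TMM factors gave 1017 higher and 576 lower and moved the median of all genes by 0.08 on the log2 scale, DESeq2 gave 982 and 848, limma voom 1129 and 1041, and DESeq2 size factors in edgeR 881 and 748. The rises were the larger changes: 380 of the called rises and 134 of the called falls reached 1 on the log2 scale. The values of the 7 older and 9 younger mutants did not overlap at all for 224 of the called rises and 253 of the called falls, or 494 of all genes tested, where 10.0% of genes were called in either direction.

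The same 12 hours changed 1112 genes upward (6.77%) and 1272 downward (7.74%) in wild types. Of the mutant rises 570 were also called as rises in wild types, which is 73.1% of the mutant list and 51.3% of the wild-type list. Of the mutant falls 646 were shared, 74.7% of the mutant list and 50.8% of the wild-type list. No gene was called in opposite directions. The genes that wild types raised had a median log2 change of 0.66 in mutants and 0.92 in wild types, and those that wild types lowered had -0.44 in mutants and -0.61 in wild types. These genes were chosen on the wild-type values, which by itself favours the larger number in wild types. The difference of the 2 changes, tested gene by gene, was called for 9 genes (0.0548%), 5 upward (0.0304%) and 4 downward (0.0243%). In the same test 657 of 16431 genes had an unadjusted p below 0.05, no larger a share than chance alone gives at that threshold.

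**Figure D1:**
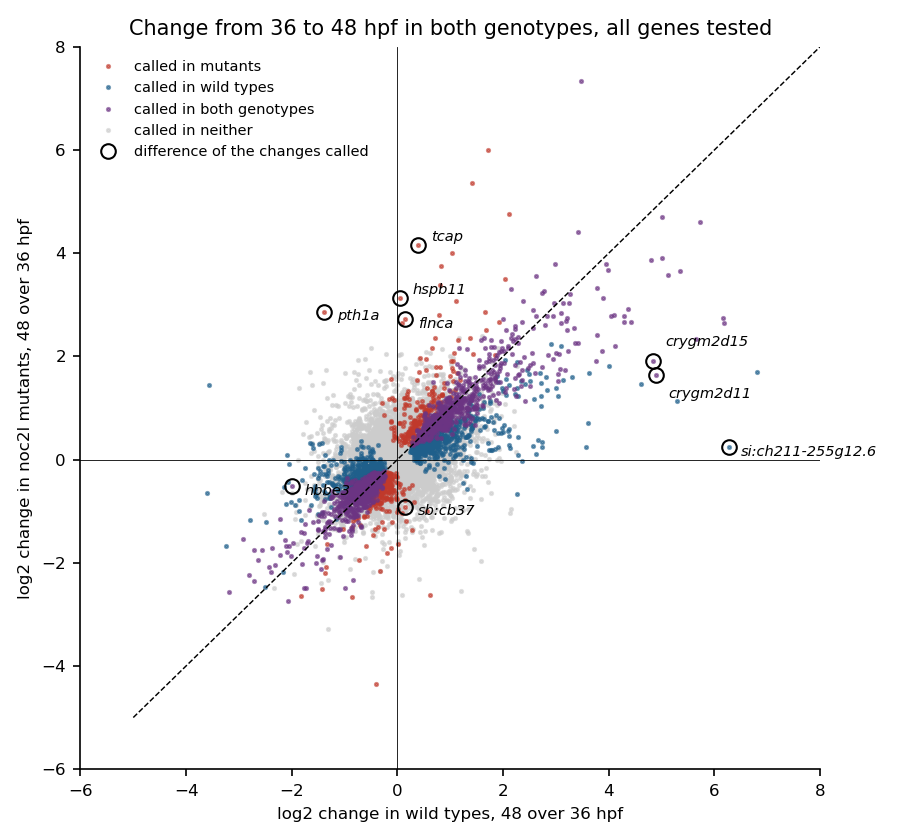
Log2 change from 36 to 48 hpf in noc2l mutants (vertical axis) against wild types (horizontal axis), 1 point for each of 16431 genes, coloured by the genotype in which the change was called. The dashed line marks equal change, and circles mark the 9 genes whose change differed between genotypes. In each direction, 97.3% to 97.9% of the genes called in 1 genotype had the same sign of change in the other.

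Neuronal genes rose in the mutants. Of 77 tested genes of differentiated neurons, 30 were higher and 0 lower, with a median log2 change of 0.66 beside 0 over all genes; in wild types 43 were higher and the median was 0.64. The RNA-binding protein gene elavl4, which marks postmitotic neurons, was at 91.2, 91.6, 134, 133, 123, 149.9 and 109.9 CPM in the 7 mutants of 48 hpf, against 48.0 to 65.4 CPM in the 9 mutants of 36 hpf. Every older mutant lay above every younger one (log2 change 1.01, SE 0.12, adjusted p = 2.3e-09). The growth cone gene gap43 rose by 1.12, stmn2a, a regulator of microtubules in growing axons, by 1.29, and snap25b, which drives synaptic vesicle fusion, by 1.43 on the log2 scale (SE 0.16, 0.17 and 0.20). These 3 genes too were higher in all older mutants than in any younger one. In whole-embryo RNA, more or fewer cells of a type and more or less RNA per cell cannot be told apart, here and in all that follows.

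Genes listed for hormone-producing cells showed the same direction. Of 19 genes of the endocrine pancreas 7 were higher and 0 lower (median 0.52). The 4 of smallest p were scg5, neurod1, scg3 and ins, and whole-embryo RNA does not show in which cells these transcripts lay. Insulin, ins, had a lowest, median and highest level of 29.2, 52.5 and 73.4 CPM in mutants of 48 hpf and 8.24, 19 and 33.3 CPM in mutants of 36 hpf, a rise of 1.39 with slight overlap (SE 0.23, adjusted p = 1.93e-05). Of 14 pituitary and hormone genes 3 rose: npy, encoding neuropeptide Y, by 4.76, oxt, encoding oxytocin, by 3.67, and smtlb, encoding somatolactin beta, by 3.28 on the log2 scale. All 3 were nearly silent in the younger mutants, with a median of 0.00 CPM for npy and oxt and 0.147 CPM for smtlb, and stayed under 5 CPM in the older ones. At such counts the size of the fold is poorly fixed (SE 0.93, 0.80 and 0.79).

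In the eye, rises outnumbered falls, most of all among gamma crystallins. Of 50 genes of photoreceptors and retina 12 were higher and 4 lower (median 0.16). The bipolar cell regulator vsx1 had a lowest, median and highest level of 16.2, 30.9 and 51.1 CPM in the older mutants and 5.08, 9.91 and 12 CPM in the younger ones, without overlap (log2 change 1.73, SE 0.19, adjusted p = 3.5e-10). The photoreceptor regulator crx also rose, by 1.57. Both genes are among the 12 rises, and the 4 falls of this list are not described here. Gamma crystallins, the small structural proteins of lens fibres, had the largest called share of the 48 lists, with 24 of 26 tested genes higher and 0 lower and a median log2 change of 1.78, against 2.84 in wild types, where all 26 were higher. Crygm2d2 reached 83.7, 124, 254, 197, 186, 174 and 362 CPM in the mutants of 48 hpf, against 4.56 to 57.8 CPM in those of 36 hpf. The groups did not overlap (log2 change 2.7, SE 0.35, adjusted p = 2.91e-07). Counting may divide reads among these near-identical copies, so single members are uncertain. Of 13 alpha and beta crystallins, other classes of lens protein, 2 were higher in mutants, cryaa by 1.39 and cryba2b by 1.01, against 5 in wild types. Lim2.5, a lens membrane protein gene, rose by 3.05 (SE 0.65, adjusted p = 0.000616).

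Among skeletal genes that passed the test, most were higher. Of 48 genes of cartilage and pharyngeal arches 13 were higher and 1 lower (median 0.37). Among them the cartilage matrix gene matn3a rose by 1.36 (SE 0.17), the collagen gene col9a1a by 1.59 (SE 0.26) and fgfbp2b, which encodes a secreted FGF-binding protein, by 1.76 (SE 0.22). The mutant groups did not overlap in matn3a and col9a1a and met in fgfbp2b, where the lowest older mutant had 11.5 CPM and the highest younger one 12.9 CPM. The single cartilage gene that fell was mia, a secreted cartilage protein, by 1.64 on the log2 scale (adjusted p = 0.0133), which was not called when the 16 mutant libraries were fitted alone (adjusted p = 0.0599). Of 25 genes of early bone 4 were higher and 1 lower. Ifitm5, a membrane protein of bone-forming cells, had 4.59, 1.2, 10.6, 10.1, 8.62, 10.4 and 13.7 CPM in the mutants of 48 hpf and at most 0.877 CPM in any mutant of 36 hpf. It rose by 4.71 (SE 0.48, adjusted p = 1.1e-11). Col10a1a, the collagen of maturing bone and cartilage cells, ran from 6.26 to 29.4 CPM at 48 hpf and from 0.778 to 4.73 CPM at 36 hpf, without overlap (log2 change 2.79, SE 0.33, adjusted p = 7.56e-09). Wild types of 48 hpf had 27.3 to 89.6 CPM of col10a1a and 11.7 to 24.4 CPM of ifitm5. For matn3a they had 46.4 to 95.5 CPM, against 64.8 to 111 CPM in mutants of 48 hpf. The difference of the changes was called for none of these genes, and levels were not tested between genotypes here. The bone gene that fell was acp5a, the tartrate-resistant acid phosphatase, by 1.87 on the log2 scale.

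Of 63 contractile genes of fast skeletal muscle 16 were higher and 2 lower (median 0.34). Ampd1, the AMP deaminase of muscle, rose by 3.57 (SE 0.43) and atp2a1l, a calcium pump gene, by 1.86 (SE 0.19), both without overlap. Atp2a1l had 69.8, 80.4, 50.7, 56.6, 61.5, 77.3 and 82.6 CPM in the mutants of 48 hpf and a lowest and median level of 7.30 and 20.1 CPM in those of 36 hpf. The other direction was taken by tnni2b.1, encoding a fast troponin I, with 107 to 189 CPM in mutants of 48 hpf and 343 to 923 CPM in those of 36 hpf (log2 change -2.01, SE 0.17, adjusted p = 4.36e-12). In the fin fold, and2 and and3, which encode the actinodin proteins of its fibres, rose by 0.97 and 1.05 on the log2 scale (SE 0.10 and 0.12). The epidermal list as a whole was divided, 11 of 68 genes being higher and 6 lower.

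Other strong rises were spread over several tissues. S100a10a, an annexin-binding protein, had 9.74, 8.26, 21.8, 15.4, 28.8, 21.9 and 27.3 CPM in the mutants of 48 hpf and 0.160 to 4.72 CPM in those of 36 hpf (log2 change 3.80, SE 0.46, adjusted p = 2.67e-08). Ndrg1b rose by 2.79 and ponzr4 by 2.59, and neither overlapped between the mutant groups. Fkbp5, a co-chaperone of the glucocorticoid receptor and a classical target of that hormone, rose by 2.78 (SE 0.41, adjusted p = 1.94e-06), with 11.5 to 53.2 CPM at 48 hpf and 1.32 to 12.4 CPM at 36 hpf. Among 31 circadian clock genes 8 were higher and 1 lower, led by ciarta, a repressor within the clock, which rose by 1.21 (SE 0.15, adjusted p = 4.75e-09). Roraa, an activator of the clock, rose by 1.56 and cry1a, a light-responsive repressor, by 1.47. In wild types 13 of the 31 were higher and 1 lower. The fish were kept under light and dark cycles, per the labels, and the labels give no clock time of collection. As the ages lie 12 hours apart, age and time of day cannot be told apart for these genes.

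**Figure D2:**
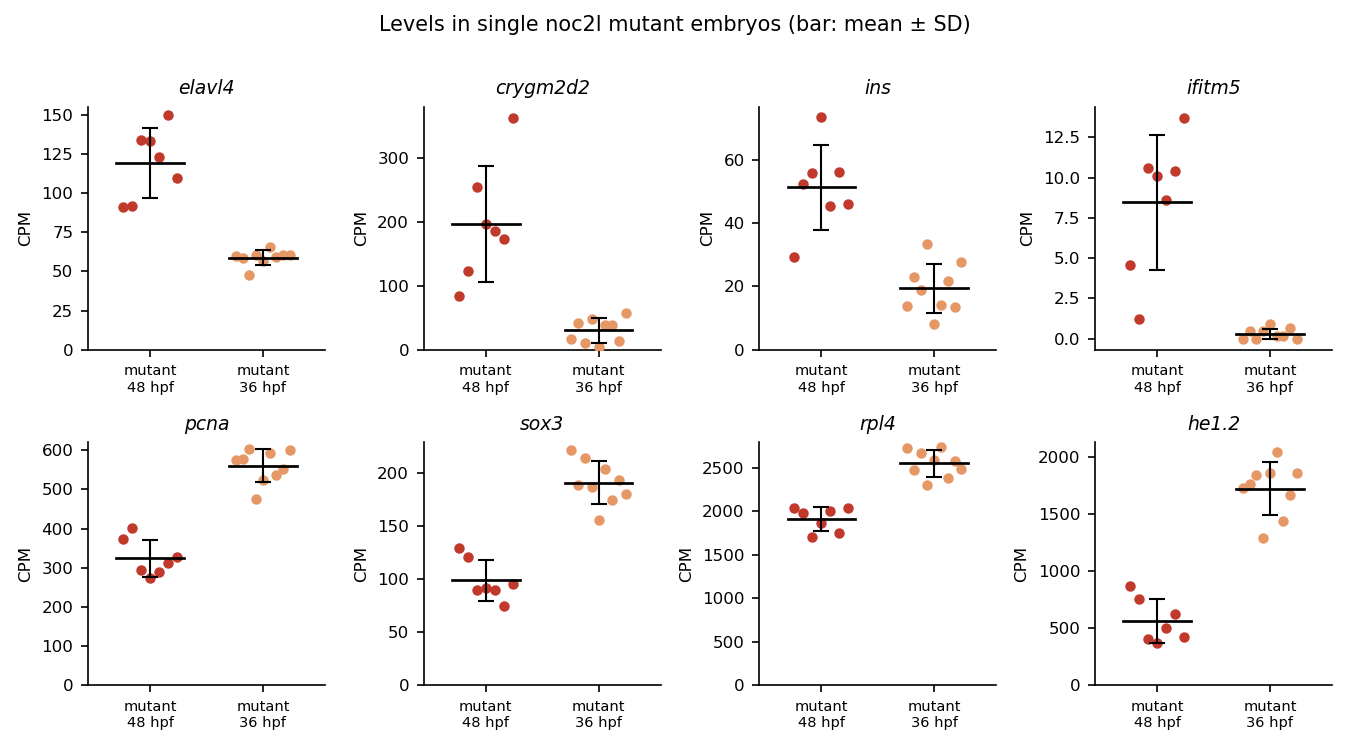
CPM (vertical axes) of 8 genes in the 7 noc2l mutants of 48 hpf (left in each panel) and the 9 of 36 hpf (right), 1 point per embryo, with mean and SD. Elavl4, crygm2d2 and ifitm5 were higher in every older mutant, ins with slight overlap, and pcna, sox3, rpl4 and he1.2 were lower in every older mutant.

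Proliferation genes fell together. Of 117 genes of the cell cycle and DNA replication 86 were lower and 1 higher, with a median log2 change of -0.55, against 91 lower and 1 higher with -0.61 in wild types. The replication clamp gene pcna had 374, 400.2, 294, 273, 290.1, 311 and 326 CPM in the mutants of 48 hpf and 476 to 604 CPM in those of 36 hpf. The groups did not overlap (log2 change -0.79, SE 0.10, adjusted p = 6.79e-09). Mcm4, part of the replicative helicase, fell by 0.84 and ccne2, the cyclin that opens S phase, by 0.95 on the log2 scale (SE 0.11 and 0.13). The member that rose, stmn1b, encodes a microtubule regulator of neurons and is a cell cycle gene only by its family (log2 change 1.07).

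The genes of neural progenitors went the same way, 28 of 48 being lower and 2 higher (median -0.45, and -0.59 in wild types). Sox3, which keeps cells in the progenitor state, had a lowest, median and highest level of 75.0, 91.6 and 129.6 CPM in the older mutants and 156, 189 and 222 CPM in the younger ones. It fell by 0.95 on the log2 scale (SE 0.11, adjusted p = 1.02e-09). The Notch ligand gene dld fell by 1.22, and the hairy-related repressor genes her2 and her8a by 1.44 and 1.09. In none of these 4 genes did the mutant groups overlap. Slc1a3a, a glutamate transporter of radial glia, fell by 1.35 and metrn, a secreted factor of glia and progenitors, by 1.32 (SE 0.13 each). Both belong to the list of glia and myelin, which was divided. Of its 27 genes 6 were higher and 4 lower (median 0.12), with atp1a1b among the rises.

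Noc2l acts in the making of ribosomes, and the ribosome itself was examined next. Of 83 cytosolic ribosomal protein genes 46 were lower and 0 higher in the mutants, with a median log2 change of -0.29, and all 83 had a negative estimate. In wild types 78 were lower, with a median of -0.44. The difference of the changes was called for none of the 83. Rpl4, of the large subunit, had a lowest, median and highest level of 1703, 1985 and 2042 CPM in the older mutants and 2300.3, 2579 and 2746 CPM in the younger ones. It fell by 0.42 on the log2 scale without overlap (SE 0.08, adjusted p = 0.000154). Rps9 and rps20, of the small subunit, fell by 0.48 and 0.50. Of 138 ribosome biogenesis factors, the class to which noc2l belongs, 4 were lower and 0 higher in mutants (median -0.10), against 20 lower in wild types (median -0.19). Of 27 genes listed for RNA polymerases I and III, which transcribe the ribosomal RNAs, 1 was lower. Neither that call nor any of the 4 mutant calls among biogenesis factors held with scaling to library totals alone. Among 74 translation factors and tRNA synthetases 11 were lower and 2 higher; eef2b, an elongation factor gene, fell by 0.51. Among 107 splicing genes 15 were lower and 0 higher, led by hnrnpa1b, which fell by 0.63.

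Genes of tissues that serve the embryo before it feeds fell more often than they rose. In the hatching gland, whose secreted proteases dissolve the egg envelope, 5 of 17 genes were lower and 1 higher. The hatching enzyme gene he1.2 had 865, 753, 404, 367, 499, 620.2 and 423 CPM in the mutants of 48 hpf and 1287 to 2045 CPM in those of 36 hpf, without overlap (log2 change -1.62, SE 0.14, adjusted p = 1.22e-12). Its near copy he1.1 fell by 1.07, and ctslb, a cathepsin gene active in the gland, by 1.68. Klf17, a regulator of the gland's formation, fell by 1.46.

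Of 46 genes of the yolk syncytial layer and lipoproteins, which export yolk to the embryo, 15 were lower and 2 higher. Afp4, an abundant transcript of this layer, had 1424, 1673, 728, 1309, 1788, 1033 and 1254 CPM in the mutants of 48 hpf and 3010.3 to 6498 CPM in those of 36 hpf (log2 change -1.89, SE 0.18, adjusted p = 1.12e-10). Apoa4a, an apolipoprotein gene, had 11, 10.3, 10.3, 4.19, 10.7, 22.6 and 22.2 CPM against 25.8 to 114 CPM and fell by 2.33 (SE 0.29). Apoeb, encoding apolipoprotein E, fell by 0.97 (SE 0.11). Afp4, apoa4a and apoeb were each lower in every older mutant than in any younger one. Of 62 liver genes 15 were lower and 2 higher, among the falls fetub, a plasma protein gene (-0.92), and fbp1b, a gluconeogenic enzyme gene (-1.01).

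Further large falls were those of egln3, a prolyl hydroxylase that acts on hypoxia-inducible factors (-2.49, SE 0.59), the stress-activated kinase gene mapk12b (-1.95, SE 0.24), the cathepsin gene ctsh (-1.93, SE 0.26), greb1 (-1.65, SE 0.32) and dao.1, a D-amino acid oxidase gene (-2.03, SE 0.51). Of these, dao.1 was not called by limma voom (adjusted p = 0.087), and the other 4 were called in every alternative fit that tested them. All 5 were also called as falls in wild types.

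**Figure D3:**
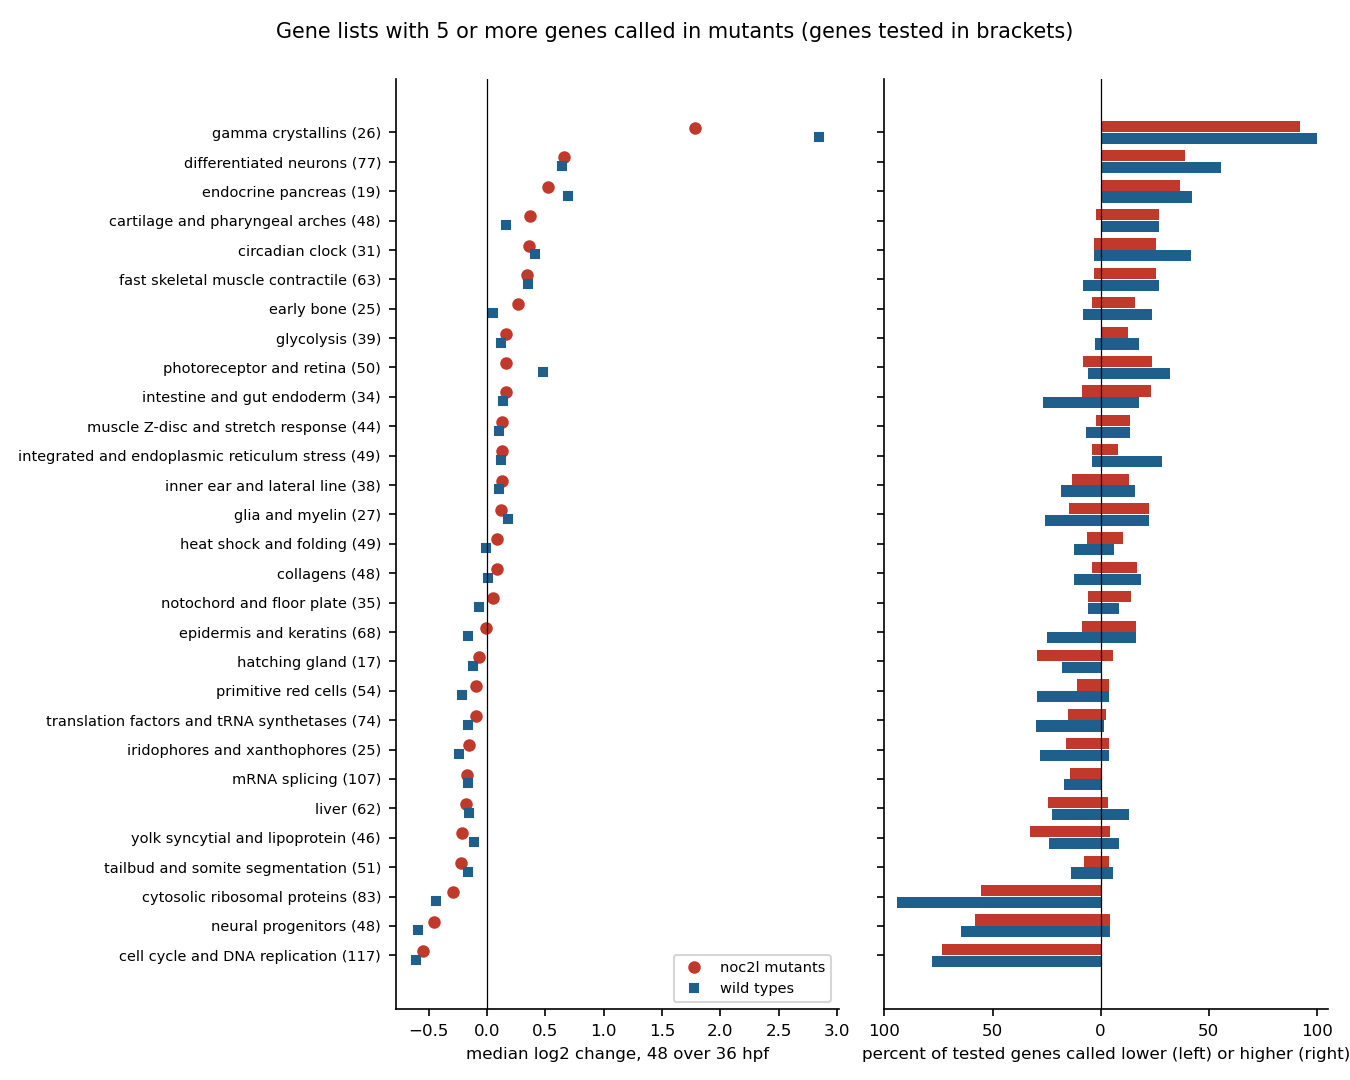
Left, median log2 change from 36 to 48 hpf over the tested genes of each list in noc2l mutants (circles) and wild types (squares); right, percent of those genes called lower or higher, mutants above wild types. Only lists with at least 5 genes called in mutants are drawn; gamma crystallins lie farthest to the right, and cell cycle, neural progenitor and ribosomal protein genes farthest to the left.

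Among the 9 genes whose change differed between genotypes were 2 of the muscle Z-disc, the plate that anchors the thin filaments, and 1 small heat shock protein gene, of a class that holds damaged proteins in a soluble state. Tcap encodes telethonin, which links titin molecules at the Z-disc. It had 7.79, 175, 186, 97.2, 79.4, 82.3 and 14.7 CPM in mutant embryos 1 to 7 of 48 hpf, against 2.47 to 8.09 CPM in the mutants of 36 hpf. Its log2 change was 4.16 in mutants (SE 0.40, adjusted p = 2.09e-10) and 0.40 in wild types, where no embryo of either age exceeded 7.82 CPM. The difference of the changes was 3.76 (adjusted p = 0.000542). Mutant embryos 1 and 7 stood low among the 7, embryo 1 within the range of 36 hpf and embryo 7 above it.

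Flnca, encoding filamin C, an actin crosslinker of the Z-disc, had 10.3, 64.6, 99.7, 50.7, 38.9, 39.3 and 12.9 CPM in the mutants of 48 hpf and 3.83 to 11.2 CPM in those of 36 hpf. It rose by 2.72 in mutants (SE 0.28, adjusted p = 1.7e-10) and its change exceeded that of wild types by 2.57 (adjusted p = 0.00033). The small heat shock protein gene hspb11 had 7.79, 111, 251, 137, 122, 70.7 and 9.05 CPM at 48 hpf and 8.40 to 16.9 CPM at 36 hpf. It rose by 3.13 in mutants (SE 0.40, adjusted p = 1.26e-07), and the difference of the changes was 3.08 (adjusted p = 0.00602). In both genes embryos 1 and 7 were again the 2 lowest. Hspb9, another small heat shock protein gene, reached 53.4, 492, 617, 353, 370.2, 319.6 and 32.3 CPM at 48 hpf, against 9.47 to 50.6 CPM at 36 hpf. Its rise of 3.76 in mutants was called, and its difference of 2.93 from wild types missed the threshold (adjusted p = 0.0557). One wild type of 48 hpf, embryo 6, also stood out, with 52.2 CPM of hspb9 where the other wild types of that age had 5.70 to 21.2 CPM. Ankrd1a, which encodes a titin-binding protein induced by stretch, rose by 2.65 in mutants (SE 0.47, adjusted p = 5.65e-05), and its difference from wild types was not called.

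Most genes of the same lists did not pass the test. Of 44 tested genes of the Z-disc and stretch response 6 were higher and 1 lower in mutants (15.9% called, median 0.13), and of 49 genes of heat shock and protein folding 5 were higher and 3 lower (16.3% called, median 0.09). The differences called were 2 of the 44 and 1 of the 49. DESeq2 also called the difference between genotypes for these 3 genes, and limma voom did not, for tcap (adjusted p = 0.874), flnca (0.351) or hspb11 (0.874), and hspb11 also missed the threshold in a fit of the 36 and 48 hpf libraries alone (0.0586). The rise of each of these 5 genes within mutants was called in every alternative fit that tested it, also with any one mutant embryo left out.

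Pth1a, encoding a parathyroid hormone, a regulator of calcium and bone, showed the same division among embryos, with 0.834, 18.8, 21.2, 17.8, 9.61, 14.8 and 0.566 CPM in the mutants of 48 hpf and 0.301 to 2.79 CPM in those of 36 hpf. Its log2 change was 2.86 in mutants (SE 0.55, adjusted p = 0.00011) and -1.39 in wild types, a difference of 4.25 (adjusted p = 0.00551). Neither call held in limma voom (adjusted p = 0.0588 for the rise and 0.892 for the difference), and the difference also missed the threshold in the fit of the 36 and 48 hpf libraries alone (0.0774). Over the 12 largest rises in mutants, embryos 1 and 7 were the 2 lowest of the 7 in 7 genes: tcap, hspb9, hspb11, pth1a, fkbp5, flnca and ankrd1a. In the other 5 genes they were not, and embryo 7 had the highest level of col10a1a and crygm2d2. Embryos 1 and 7 were picked as a pair after the levels of these genes were seen. How often they are the 2 lowest over all genes was not counted, so the 7 genes give no separate support for a division. Embryos 1 and 7 had totals of 6.92 and 7.09 in units of 1000000 counts, beside a median of 7.01 in their group. Their noc2l levels were 3.75 and 2.69 CPM, that of embryo 7 being the lowest of the 7. What sets the 2 embryos apart was not tested.

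Of the 9 genes with a called difference, 1 kept that call in every alternative fit, the red cell gene hbbe3. Hbbe3, an embryonic beta globin gene, had 1685, 1552, 1279.6, 1562, 1435, 1699.7 and 1371 CPM in the mutants of 48 hpf and 1926 to 2492 CPM in those of 36 hpf. In wild types it had 448 to 940.1 CPM at 48 hpf and 2205 to 3138 CPM at 36 hpf. Hbbe3 thus fell in both genotypes, by 0.52 on the log2 scale in mutants (SE 0.12, adjusted p = 0.000975) and by 1.99 in wild types, and the difference of 1.47 (SE 0.16, adjusted p = 4.6e-09) had the smallest p of all genes tested. No mutant of 48 hpf came as low as any wild type of that age. Among the other 8 tested globin genes, examined after hbbe3 was seen, none was called in either genotype or in the difference. Hbbe1.1, a related beta globin gene, averaged 3743 ± 649.9 CPM in mutants of 48 hpf and 2688 ± 786 CPM in mutants of 36 hpf (SD, n = 7 and 9; log2 change 0.48, adjusted p = 0.135). Of 54 red cell genes 2 were higher and 6 lower in mutants, against 2 higher and 16 lower in wild types.

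In the lens, 2 gamma crystallins rose less in mutants. Crygm2d11 had 3.34, 2.75, 4.13, 5.24, 1.84, 4.54 and 10.0 CPM in the mutants of 48 hpf and 0.00 to 2.36 CPM in those of 36 hpf, against 27.7 to 131 CPM in wild types of 48 hpf and 0.427 to 4.35 CPM in those of 36 hpf. It rose by 1.64 in mutants and 4.89 in wild types, a difference of -3.25. Crygm2d15 reached 4.82 to 26.6 CPM in mutants and 79.5 to 306 CPM in wild types at 48 hpf, and its rise of 1.92 was smaller by 2.92 than that of wild types. Neither difference was called by limma voom (adjusted p = 0.285 and 0.186), nor the mutant rise of crygm2d11 (0.0541). The difference of crygm2d15 missed the threshold with the 36 and 48 hpf libraries alone (0.0801) and when mutant embryo 2, 4 or 9 of 36 hpf or embryo 6 of 48 hpf was left out. The differences of the other 24 gamma crystallins were not called.

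The remaining 2 differences concerned genes known only by clone names. The transcript si:ch211-255g12.6 had 0.974, 1.72, 0.258, 1.05, 0.283, 0.423 and 1.27 CPM in the mutants of 48 hpf and 0.00 to 2.41 CPM in those of 36 hpf, whereas wild types had 8.47 to 110.5 CPM at 48 hpf and 0.00 to 2.63 CPM at 36 hpf. It rose by 6.27 in wild types and its change in mutants was not called (log2 change 0.24, SE 0.73, adjusted p = 0.909), a difference of -6.04 that limma voom did not call (adjusted p = 0.433). Every wild type of 48 hpf lay above every mutant. The transcript sb:cb37 fell by 0.92 in mutants, to 8.88 to 15.7 CPM at 48 hpf against 15.6 to 27.7 CPM at 36 hpf, and was not called in wild types. Its difference of -1.06 was lost with 10 of the 16 mutant embryos, each left out in turn.

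**Figure D4:**
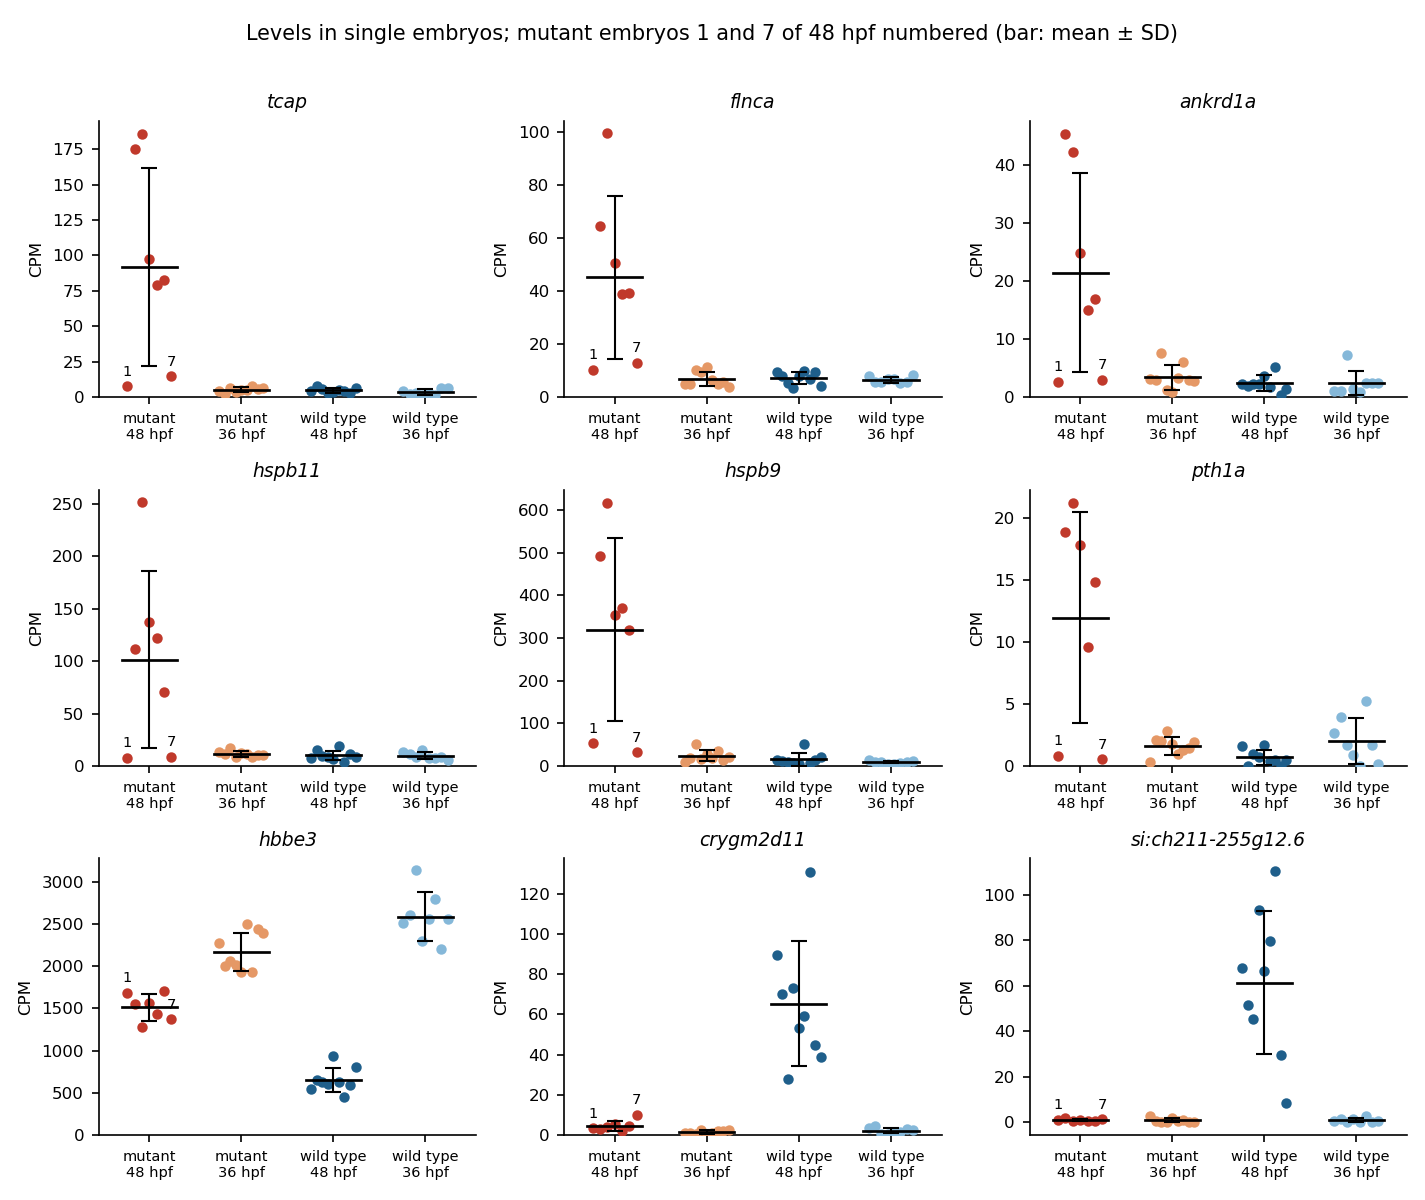
CPM (vertical axes) of 9 genes in single embryos of the 4 groups, with mean and SD; mutant embryos 1 and 7 of 48 hpf are numbered. In the upper 6 panels 5 mutants of 48 hpf stand high while embryos 1 and 7 lie near the younger mutants and the wild types; at 48 hpf, hbbe3 was higher in every mutant than in any wild type, and crygm2d11 and si:ch211-255g12.6 were lower.

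How far each mutant had moved along the wild-type course was described with the 200 genes that rose most and the 200 that fell most from 36 to 48 hpf in wild types. On this axis the mean of wild types of 36 hpf is 0% and that of wild types of 48 hpf is 100%. Mutant embryos 1 to 7 of 48 hpf stood at 58.0%, 58.1%, 89.4%, 84.3%, 88.3%, 83.7% and 93.3%, with a mean of 79.3% ± 14.9 (SD, n = 7). The mutants of 36 hpf stood between -31.6% and 9.35%, with a mean of -5.51% ± 14.3 (n = 9). Wild types of 48 hpf ran from 71.9% to 117% and those of 36 hpf from -25.1% to 17.7%. The lower end of that older range was 1 wild type, embryo 9, the shallowest of its group at 1.95 in units of 1000000 counts, and the other 8 stood between 96.1% and 117%. Mutant embryos 1 and 2 lay below all wild types of 48 hpf, the other 5 lay above wild-type embryo 9, and all 7 lay below the other 8 wild types. The axis genes were chosen for their change in wild types, so no test is given. Embryo 7 stood farthest along the axis and embryo 1 least far, and both were low in tcap and hspb9. Embryo 2, at almost the same position as embryo 1, was high in both genes. These embryos were picked after their levels were seen, and whether position goes with these levels was not tested. Without crystallins the mutants of 48 hpf averaged 82.9% and those of 36 hpf -6.45%. With 50 genes each way in place of 200 the means were 70.6% and -8.49%, and 6 of the 7 older mutants, at 49.8% to 80.3%, lay below every wild type of 48 hpf, of which the lowest stood at 80.9%.

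**Figure D5:**
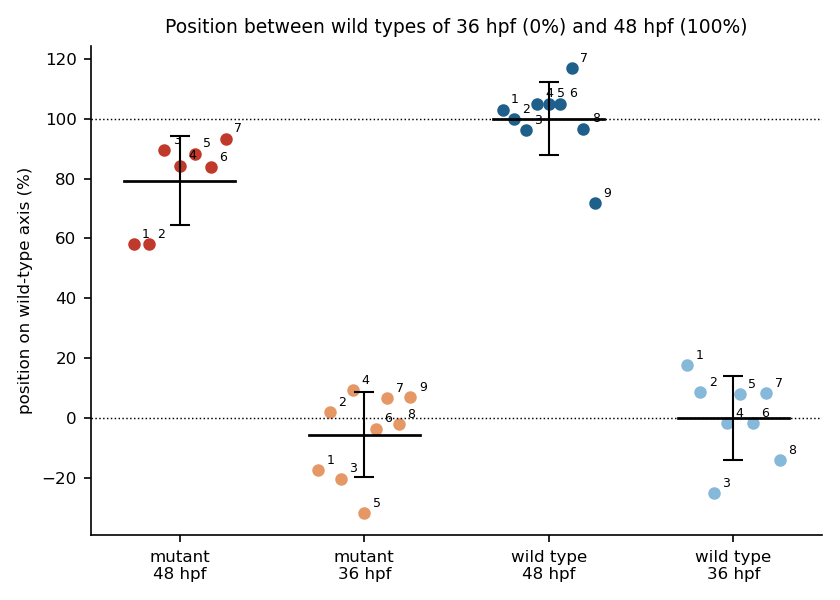
Position of single embryos (numbered) between the mean of wild types of 36 hpf (0%) and of 48 hpf (100%), in percent, with mean and SD of each group. All 7 mutants of 48 hpf lie below 8 of the 9 wild types of that age, and embryos 1 and 2, at 58.0% and 58.1%, also below wild-type embryo 9 at 71.9%.

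Several groups that could have been affected moved little over these 12 hours in mutants. Of 31 genes of growth arrest and cell death 1 was higher and 2 were lower (9.68% called, against 10.0% of all genes). The stress-response genes mdm2, ccng1, rps27l and phlda3, named after their values were seen, had log2 changes between -0.06 and 0.11, none called. At 36 hpf each of them already had more counts in every mutant than in any wild type. Rps27l had 1184 to 4604 counts in mutants and 272 to 460 in wild types of 36 hpf. At 48 hpf it had 1302 to 4139 counts in mutants and 113 to 699 in wild types. These counts are not scaled for depth, and levels were not tested between genotypes here. Cdkn1a, an inhibitor of the cell cycle, had a log2 change of 1.66 (SE 0.91, adjusted p = 0.293) at no more than 3.49 CPM. Cdkn1a was called only by limma voom (adjusted p = 0.0395). Of 49 genes of integrated and endoplasmic reticulum stress, 4 were higher and 2 lower in mutants (12.2% called, median 0.13). In wild types 14 of them were higher and 2 lower, with a similar median of 0.12. The difference of the changes was called for none of them. One of the 4, atf3, a transcription factor of the stress response, rose by 1.2 (SE 0.32, adjusted p = 0.00606), with 12.4, 35.1, 29.9, 16.8, 14.1, 11.3 and 8.21 CPM at 48 hpf and a lowest and median level of 1.50 and 8.08 CPM at 36 hpf, and the groups overlapped. Of 45 endothelial genes 1 was called, cxcr4a, a chemokine receptor gene, which fell by 1.07. Of 9 genes of the neuromuscular junction 0 were called, 38 Hox genes gave 2 rises, and 89 nuclear genes of oxidative phosphorylation gave 2 rises with a median of 0.14.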

How the data were processed

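Messenger RNA of 48 single embryos was measured by 3' end sequencing (Lasy-Seq), per the labels' protocols. Reads were handled with BWA 0.7.17-r1188, Salmon and fastp 0.21.0 and the build GRCz11, per the submitters' processing notes, in no stated order. Annotation, strand handling and the way genes were summed are not given in the sources used here. Expected counts were deposited by the authors: these are estimated counts per gene symbol, not normalised, for 31658 entries. All but 2 values were whole, and expected counts were rounded before testing.

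Genes were kept by filterByExpr (minimum count 10) on the 6 groups of genotype and age, leaving 16431 with 99.8% of counts. EdgeR 4.0.16 (R 4.3.3) fitted TMM factors, 1 mean per group over all 48 libraries and robust quasi-likelihood tests, with Benjamini-Hochberg adjustment over all genes at 0.05. "Higher", "lower", "rose", "fell" and "called" refer to this threshold, log2 changes are 48 over 36 hpf, SEs come from the F statistic, and levels are CPM with TMM scaling. The difference of the changes is the mutant minus the wild-type change. The scripts were tested on simulated data. With no transcript lengths in use, levels are compared within genes. No 2 libraries of a group agreed within sampling noise.

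Embryo totals and shares were compared by exact permutation tests in Python (scipy 1.17.1). Axis scores are mean log2 CPM (prior count 2) of risers minus fallers, chosen anew without the embryo for wild types. Alternatives were other scaling, filters, limma voom 3.58.1, DESeq2 1.42.0, fewer libraries, a replicate block and each mutant embryo left out.

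Members, gene lists and tests were chosen with earlier results of these data known. Named genes are noc2l, the 12 largest called rises and falls in mutants and up to 10 called differences each way (mean of at least 10 CPM in the highest group, no clone names), and the 4 genes of smallest p of each of 48 lists. Clone-named genes, the other globins and mdm2, ccng1, rps27l, phlda3 and cdkn1a were added after their values were seen. Chromosomes come from a table of another assembly, GRCz12tu, by symbol. That table placed 171 of the 176 named genes, which include noc2l itself, and 3 on the chromosome of noc2l. Linkage to noc2l was not tested. The text describes only some of the list genes, and 1 further gene is not reported here.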

Additional observations from a re-analysis of the deposited data

Results flagged for a closer look

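The change from 36 to 48 hpf differed between mutants and wild types, by a test of the difference itself, for 9 genes. The log2 difference was 3.76 for tcap, 3.08 for hspb11, 4.25 for pth1a, 2.57 for flnca and 1.47 for hbbe3. It was -3.25 for crygm2d11, -2.92 for crygm2d15, -6.04 for si:ch211-255g12.6 and -1.06 for sb:cb37. Within the mutants of 48 hpf, embryos 1 and 7 lay far below the other 5 in the first 4 of these genes; what sets these 2 embryos apart was not tested.

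Single mutant embryos stood away from the rest of their group by Dixon's criterion in 20 of 174 groups of values examined (11.5%). The criterion flags about 1 in 20 groups when values are independent and normally spread. Most values here were CPM, not on a log scale, of genes chosen from the results. That rate therefore need not hold for them, and an excess over chance was not tested. At 48 hpf, embryo 2 was high in tnni2b.1 (189 CPM, next 141) and mapk12b (14.8, next 8.04), and embryo 7 was high in crygm2d11 (10.0 CPM, next 5.24) and low in rps27l (324, next 407). Embryo 1 was high in matn3a (111 CPM, next 82.5), embryo 5 in fbp1b (106, next 85.6), embryo 3 was low in rps20 (1799.9, next 2326), and embryo 4 had the fewest genes detected (17554, next 19166) at the lowest depth.

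At 36 hpf, embryo 3 was high in egln3 (45.5 CPM, next 17.7) and low in elavl4 (48.0, next 56.6) and and2 (111, next 157). Embryo 5 was high in greb1 (28.1 CPM, next 15) and fetub (317, next 239.6), had the largest share of its counts in its top 10 genes (18.63%, next 15.15%) and the smallest mitochondrial share (2.815%, next 3.102%). Embryo 2 had the largest total (9069435 counts, next 7082385) and was highest in s100a10a (4.72 CPM, next 1.45) and npy (0.337, next 0.00). Embryo 9 was high in fkbp5 (12.4 CPM, next 6.23) and embryo 4 in ciarta (22.9, next 13.4).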

How the results depend on the processing

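Of the 169 named genes called in mutants, 148 kept direction and call under all 26 settings that tested them. With library totals only, 576 genes were lower; with limma voom the difference of the changes was called for 3 genes upward and 1 downward. Leaving out each mutant embryo gave 661 to 805 higher and 689 to 858 lower in mutants, 1040 to 1102 and 1265 to 1331 in wild types, and 5 to 7 and 2 to 4 for the difference, the lowest counts of the last without embryo 4 or 9 of 36 hpf or embryo 6 of 48 hpf. Near-zero changes that were never called altered sign: mdm2 was 0.02 with library totals and -0.13 to 0.01 with an embryo left out, phlda3 -0.05 to 0.17 and si:ch211-255g12.6 -0.03 to 0.79. The cause was not tested. The difference for hspb9 was called by DESeq2 (adjusted p = 0.0019), with the stricter filter (0.0374) and without embryo 3 or 7 of 36 hpf or embryo 1 or 7 of 48 hpf. Replicate numbers did not pair the embryos (0 of 7 same-numbered pairs correlated over 0.1, and 1 of 7 correlated best with its own number); a replicate block gave 731 higher and 821 lower in mutants, 5 and 5 for the difference, 0.01 for mdm2, and lost the difference of pth1a (adjusted p = 0.103). More genes were higher than lower also without the filter on low counts (829 and 724), with the stricter one (838 and 786) and with the 36 and 48 hpf libraries alone (1080 and 1040). As in the main fit, fewer were higher than lower with the 16 mutant libraries alone (1001 and 1086). The same held without the libraries under 1/3 of the median total (859 and 935). Depth limits the folds of genes with almost no counts at 36 hpf, such as npy (SE 0.93).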
